A study of Homo sapiens with 32 samples.

Results

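The genes described here encode the replication-dependent histones. They were taken by symbol from a table of counts per gene: every row named H1, H2AC, H2BC, H3C or H4C followed by a gene number was a member. The rule found 71 of 60660 rows, with 10 H1, 15 H2A, 18 H2B, 13 H3 and 15 H4 genes. Of these, 18 had a mean count of at least 10 over the 32 libraries (4 H1, 4 H2A, 6 H2B, 2 H3 and 2 H4), 53 fell below it and 14 of those had no count in any library. The rule also takes in replacement-type members such as H1-10, which are made outside S phase from polyadenylated mRNA, and the sums given below leave these out.

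Replication-dependent histone genes sit in clusters and are switched on together in S phase, when new DNA has to be packed into nucleosomes. H2A, H2B, H3 and H4 form the nucleosome core, and H1 binds the linker DNA between cores. Their mRNAs are the metazoan exception to polyadenylation: U7 snRNP and the stem-loop binding protein SLBP direct a cut just after a conserved stem-loop, and the mRNA ends there. A poly(A)-selected library therefore holds little of this RNA, mainly copies that were polyadenylated at a downstream site, which many of these genes have and which rise in cells that have left the cycle or are short of processing factors.

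All libraries came from HCT116, a human colorectal carcinoma line that carries a doxycycline-inducible OsTIR1 gene (genotype Tet-OsTIR1-PURO), the plant receptor used in degron systems. The study compared parental cells with knockouts of IGF2BP3 or IGF2BP2, RNA-binding proteins that bind target mRNAs in the cytoplasm and are known for stabilizing them, with and without endoplasmic reticulum stress. The knockouts were CRISPR/Cas9 single-cell clones: A3, D12 and E4 for IGF2BP3, and B7, F6 and G6 for IGF2BP2. A3 and E4 share a guide RNA and D12 was made with another. Likewise, B7 and F6 share a guide and G6 has its own. Tunicamycin blocks N-glycosylation, and DMSO was its solvent control. Parental cells and IGF2BP3 knockout clones received 5 µg/mL for 4 h, while the labels do not state dose and time for IGF2BP2 knockout clones. Each knockout had 6 libraries per treatment, from 3 clones with 2 libraries each, and parental cells had 4 per treatment, from 2 samples with 2 libraries each. The labels do not say whether libraries of a line came from separate cultures, so p-values measure only the spread between these libraries. For the control libraries of clone G6 the title says control and the treatment field says tunicamycin; they were used as DMSO.

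Total counts ran from 16651438 to 24913021 per library. The targeted mRNAs fell in their own knockouts but stayed detectable: in DMSO IGF2BP3 averaged 76.7 CPM (counts scaled to a common library size after TMM normalization; SD 7.22, n = 4) in parental cells and 27.7 (SD 10.8, n = 6) in its knockout, and IGF2BP2 averaged 176 (SD 19.9, n = 4) and 86.9 (SD 5.33, n = 6). The tunicamycin markers HSPA5, DNAJB9 and DDIT3 rose in each genotype, by 3.40 to 6.54 on the log2 scale in IGF2BP2 knockout. In the IGF2BP2 knockout DMSO group, which holds the G6 control libraries, they differed from parental DMSO libraries by -0.11 to 0.12. None of them was called there. The number of detected genes was 21259 to 23139 in libraries numbered replicate 1 and 23423 to 24267 in those numbered replicate 2, with no overlap. Of 8 colorectal epithelial markers, EPCAM, KRT8, KRT18, CDH1 and CDX2 were present, while CDX1, VIL1 and CEACAM5 averaged at most 0.0707 CPM in any line. Of 9 marker genes for immune, endothelial and stromal cells, PTPRC, CD3E, CD68, PECAM1, COL1A2 and DCN averaged at most 0.0872 CPM in any line, VWF 0.285 to 0.502, ACTA2 0.755 to 1.29 and COL1A1 6.25 to 10.6.

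GENCODE release 29 (GRCh38) had 69 of the 71 members, 53 on chromosome 6, 11 on chromosome 1, 2 on chromosome 3, 2 on chromosome 12 and 1 on chromosome 22. The stem-loop was searched in their annotated transcripts, because a transcript that runs on past it is one that poly(A) selection could retain. It was found in 9 of the 18 members with a mean count of at least 10 and in 20 of the 51 others annotated. For comparison, 50 of 19684 coding genes (0.254%) had it, 29 of them members. Several gene models, among them those of H1-2 and H2BC12, stop at or near the coding sequence and cannot show it. Of the 18, 8 had a transcript reaching at least 100 bases past the stem-loop, and in 5 that transcript had a poly(A) signal (AATAAA or ATTAAA) in its last 50 bases. The H2AC6 transcripts were such a case, ending 1114 to 1128 bases past the stem-loop, whereas that of H4C9 ended 212 bases past it with no such signal. The stem-loops of a member from each core class that is described below are shown 5′ to 3′ on the transcript strand, with the 16-base stem-loop in capitals and 5 bases on either side.
H2AC6 (chr6:26124664-26124689, plus strand): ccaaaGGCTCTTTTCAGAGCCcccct
H2BC5 (chr6:26158582-26158607, plus strand): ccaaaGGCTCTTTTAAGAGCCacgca
H3C6 (chr6:26225591-26225616, plus strand): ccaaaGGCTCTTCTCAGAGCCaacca
H4C9 (chr6:27139649-27139674, plus strand): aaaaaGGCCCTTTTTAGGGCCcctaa

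The 4 members that were higher in IGF2BP3 knockout came from 4 different classes, and their promoters are shown so that the elements of the 4 can be read side by side. RefSeq promoters (GRCh38.p14) were found for 65 members. Motifs were searched on both strands in windows of 250 bases before to 50 bases after the start. The octamer ATTTGCAT (ATGCAAAT on the other strand), bound by OCT1, was in 14 of 18 H2B and 11 of 14 H2A promoters but in 1.77% of all 35116. The H1 box AAACACA was in 7 of 9 H1 promoters and 5.64% of all. CCAAT was in 54 of 65 member promoters and 34.6% of all, and TATAAA in 42 of 65 and 11.5% of all. Matches of different motifs were allowed to share letters. A match is a description of letters, not of binding. The 150 bases before the start are given with the motifs in capitals.
H1-2 (chr6:26056471-26056620, minus strand): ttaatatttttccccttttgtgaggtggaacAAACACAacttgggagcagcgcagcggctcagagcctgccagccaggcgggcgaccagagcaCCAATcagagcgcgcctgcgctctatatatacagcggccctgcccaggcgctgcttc
H2AC6 (chr6:26124022-26124171, plus strand): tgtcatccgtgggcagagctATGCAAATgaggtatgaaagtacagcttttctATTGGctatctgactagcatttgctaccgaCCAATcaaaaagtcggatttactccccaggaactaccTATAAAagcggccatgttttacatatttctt
H2BC12 (chr6:27146856-27147005, minus strand): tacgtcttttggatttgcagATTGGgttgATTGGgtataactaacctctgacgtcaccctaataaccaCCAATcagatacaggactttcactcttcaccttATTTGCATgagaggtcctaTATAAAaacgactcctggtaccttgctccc
H4C9 (chr6:27139132-27139281, plus strand): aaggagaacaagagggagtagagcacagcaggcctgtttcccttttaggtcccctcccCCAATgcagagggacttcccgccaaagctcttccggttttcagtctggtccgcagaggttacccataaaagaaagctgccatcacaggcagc

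H2AC6 also belongs to a head-to-head pair. Its partner H2BC4 starts 218 bases away on the other strand, and the octamer shown in the H2AC6 window lies in the H2BC4 window as well. Of the other such pairs, H2BC12 and H2AC12 start 330 bases apart, H2BC21 and H2AC20 322, and H2BC11 and H2AC11 291.

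Of all counts of the 71 members, H1-10 held 8.26%, H1-2 4.46%, H2BC12 3.51%, H2AC6 1.80%, H2BC5 0.877% and H4C9 0.778%, and the 53 members under a mean count of 10 together held 1.23%. Lengths, shared windows and exon overlaps in this paragraph are those of GENCODE 29. H3C2 and H3C3 have counts but are not in that release, so the gene models used for counting were not the same. Per kilobase of annotated exon, H2BC12 stood at 28.5 CPM per kilobase, H1-2 at 21.5 and H1-10 at 17.2. Another 14 members stood lower per length, between H2BC15 (0.31) and H4C3 (3.75). H2BC12 and H1-2 rest on short models (381 and 642 bases), which raises a level per length. Reads of 100 bases can be told apart for all of H1-2, H2AC6 and H4C9, for 71.6% of windows of H2BC12, for 82.8% of H2AC20 and for 19.1% of H2AC14; how the counting treated the shared windows is not stated in the sources used here. Exons of 2 of the 18 overlap other genes: H1-10 shares 345 bases with an antisense gene that had a mean count of 3.34, and H2BC15 shares 393 bases with an H2A gene on the other strand that had none.

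Loss of IGF2BP3 went with higher levels of 4 histone mRNAs in the poly(A)-selected libraries of unstressed cells. In DMSO, H1-2, H2AC6, H2BC12 and H4C9 rose between 2.05-fold and 2.73-fold over parental cells, so that linker histone H1 and core H2A, H2B and H4 each had a member that was higher, while no H3 gene passed the test. Of 19 members tested, these 4 were called and none was lower. By the same test (edgeR quasi-likelihood, Benjamini-Hochberg adjusted p of at most 0.05 over 14568 genes) 1.61% of all genes were called, 0.515% higher and 1.1% lower. Without the replacement-type members, the summed level was 36.8 CPM (SD 1.06, n = 4) in parental cells and 71.9 CPM (SD 16.4, n = 6) in the knockout, and the lowest knockout library (56.8) lay above the highest parental one (37.8). The 4 called members held most of this sum, so it is not a separate measure of the other members. A level in bulk poly(A)-selected RNA does not by itself separate more cells in S phase, more histone mRNA per cell and a larger polyadenylated share of that mRNA. Total histone mRNA was not measured, and the S-phase markers are given with the gene lists.

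H1-2 (ENSG00000187837_4, chr6:26055787-26056428, minus strand) encodes a somatic linker histone. It was at 7.11 and 7.43 CPM in the libraries of parental sample 1 and at 8.42 and 9.01 in those of sample 2. In IGF2BP3 knockout it was at 20.4 and 17.1 in A3, 15.1 and 18.3 in D12, and 25.2 and 34.8 in E4. Every knockout library was above every parental one, with E4 highest. By edgeR this was a log2 fold change of 1.45 ± 0.21 (SE), with an adjusted p of 0.00337.

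H2AC6 (ENSG00000180573_9, chr6:26124145-26139116, plus strand) encodes a core histone H2A. Its parental libraries were at 2.81, 3.35, 3.24 and 2.97 CPM. The knockout libraries were at 8.25 and 6.51 in A3, 5.43 and 6.22 in D12, and 11.8 and 10.9 in E4. The groups did not overlap, and edgeR gave a log2 fold change of 1.40 ± 0.22 (SE) at an adjusted p of 0.0054. Its head-to-head partner H2BC4 had a log2 fold change of 0.93 (SE 0.36), with overlapping groups and an adjusted p of 0.24 by edgeR.

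H2BC12 (ENSG00000197903_8, chr6:27146418-27146798, minus strand) encodes a core histone H2B. It was at 6.81, 8.12, 8.99 and 9.11 CPM in parental libraries, at 16.2 and 17.7 in A3, at 10.1 and 12.2 in D12, and at 21.5 and 23.6 in E4. D12 lay just above the parental range and E4 farthest from it. By edgeR this was a log2 fold change of 1.03 ± 0.21 (SE), with an adjusted p of 0.0249.

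H4C9 (ENSG00000276180_1, chr6:27138588-27139881, plus strand) encodes histone H4. Its parental libraries were at 1.83, 1.80, 1.56 and 1.80 CPM. Those of the knockout were at 3.55 and 3.47 in A3, 3.31 and 3.01 in D12, and 4.16 and 4.36 in E4. Here the clones lay close together and apart from parental cells, and edgeR gave 1.06 ± 0.16 (SE) on the log2 scale at an adjusted p of 0.00405.

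**Figure D1:**
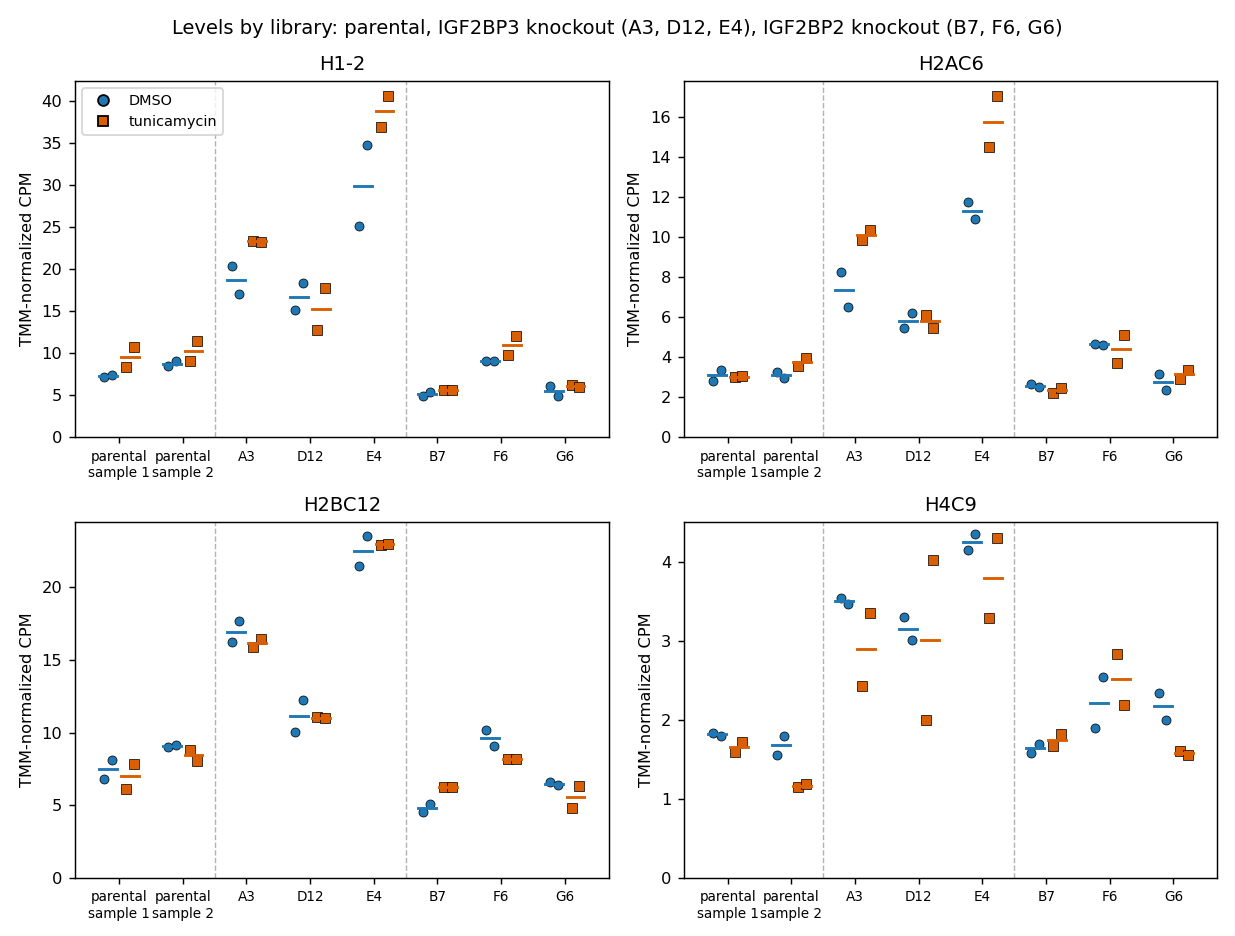
TMM-normalized CPM (y axis, from 0) of H1-2, H2AC6, H2BC12 and H4C9 in each of the 32 libraries by line (x axis). Circles are DMSO, squares tunicamycin and short bars the mean of the 2 libraries; in all 4 panels the clones A3, D12 and E4 lie above the parental samples in both treatments, with E4 on top for H1-2 at 25.2 to 40.6 CPM.

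The remaining members did not pass the test, and most lay on the higher side. H2BC5 also had every knockout library above every parental one (median 4.13 against 2.54 CPM; edgeR log2 fold change 0.61 ± 0.17 SE, adjusted p 0.0845). Such separation upward was seen for 5 of the 18 members with a mean count of at least 10 and for 1.63% of all genes, and separation downward for no member and 2.25% of all genes. Of those 18, 13 had a log2 fold change above 0, against 50.9% of all genes, and their median was 0.56 against 0.00 over all genes tested. H2BC11 (0.89, SE 0.43), H3C6 (0.81, SE 0.33) and H2AC11 (0.54, SE 0.25) were among them. H4C3, the other H4 gene, lay lower (-0.43, SE 0.22, adjusted p 0.411 by edgeR), as did H2AC14 (-0.26, SE 0.39). The replacement-type H1-10 lay close to parental, at -0.11 (SE 0.08). The 53 low members summed to 3.55 CPM (SD 0.76, n = 4) in parental cells and 5.46 (SD 3.01, n = 6) in the knockout, with overlapping ranges.

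The calls rested on few parental libraries. With parental sample 1 or sample 2 left out, none of the 4 members was called (adjusted p 0.0721 to 0.381 by edgeR), and with all replicate 1 libraries left out none was either (0.174 to 0.269); without replicate 2, H1-2 and H2AC6 were called. H2BC12 was also lost without A3 (0.0614) or without any one parental library (0.0532 to 0.0989). With counts summed per line, which sets 3 clones against 2 parental samples, H1-2 alone was called (adjusted p 0.0475 by edgeR; the others 0.0542 to 0.149). The log2 fold changes of the 4 members stayed between 0.77 and 1.61 over all alternatives run.

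Under tunicamycin the same 4 members were called among 19 tested, again all higher, against 0.718% of all genes called and 0.116% called higher. The sum without the replacement-type members was 38.0 CPM (SD 3.20, n = 4) in parental cells and 77.6 (SD 26.0, n = 6) in the knockout. Most of it again came from the 4 called members. H2AC6 rose most, with parental libraries at 3.0, 3.03, 3.58 and 3.96 CPM and knockout libraries from 5.47 to 17.1 with a median of 10.1 (edgeR log2 fold change 1.65 ± 0.30 SE, adjusted p 0.0282). H1-2 was at 8.29, 10.7, 9.11 and 11.4 CPM against 12.8 to 40.6 with a median of 23.3 (1.39, SE 0.28, adjusted p 0.0428). For neither gene did the groups overlap.

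H2BC12 was at 6.13, 7.83, 8.78 and 8.06 CPM in parental libraries under tunicamycin and at 11.0 to 23.0 in the knockout (median 16.2; edgeR log2 fold change 1.13 ± 0.22 SE, adjusted p 0.0346). H4C9 was at 1.59, 1.72, 1.15 and 1.19 CPM against 2.00 to 4.31 (median 3.32; 1.2, SE 0.24, adjusted p 0.0439 by edgeR). These 2 also separated completely, as did 1.05% of all genes in the upward direction. At an unadjusted p under 0.05 there were 9 of 19 members and 10.3% of all genes. Of the 18 members, 13 lay above 0, against 51.8% of all genes. H2BC11 (1.6, SE 0.46) and H2BC4 (1.58, SE 0.54) had differences as large as that of H2AC6 but wider errors and did not pass. Without any one of the 4 parental libraries, without either parental sample, without clone A3, without either replicate number, or with counts summed per line, no member was called under tunicamycin; the adjusted p values over these settings ran from 0.051 to 0.635 by edgeR, and the log2 fold changes over all alternatives from 0.83 to 1.94.

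Knockout of IGF2BP2 gave no such rise. Of 17 members tested in DMSO none was called by edgeR or by DESeq2, and 2 had an unadjusted p under 0.05, against 4.74% of all genes; 0.0137% of all genes were called. Of these members 5 lay above 0, against 51.7% of all genes. Under tunicamycin none of 17 was called by either tool, 1 had an unadjusted p under 0.05 (6.97% of all genes), 7 lay above 0 (51.2%), and 0.00694% of all genes were called. The medians of the members with a mean count of at least 10 were -0.18 in DMSO and -0.05 under tunicamycin, each against 0.00 over all genes. H1-2 was at 4.92 to 9.11 CPM with a median of 5.70 in DMSO, overlapping the parental libraries, with a log2 fold change of -0.29 (SE 0.20), and H2AC6 had 0.10 (SE 0.22). H3C10 had every library in DMSO (0.50 to 0.78 CPM) below the parental range (0.88 to 1.07), and edgeR gave -0.51 ± 0.21 (SE) on the log2 scale at an adjusted p of 0.983; 0.494% of all genes separated that way.

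**Figure D2:**
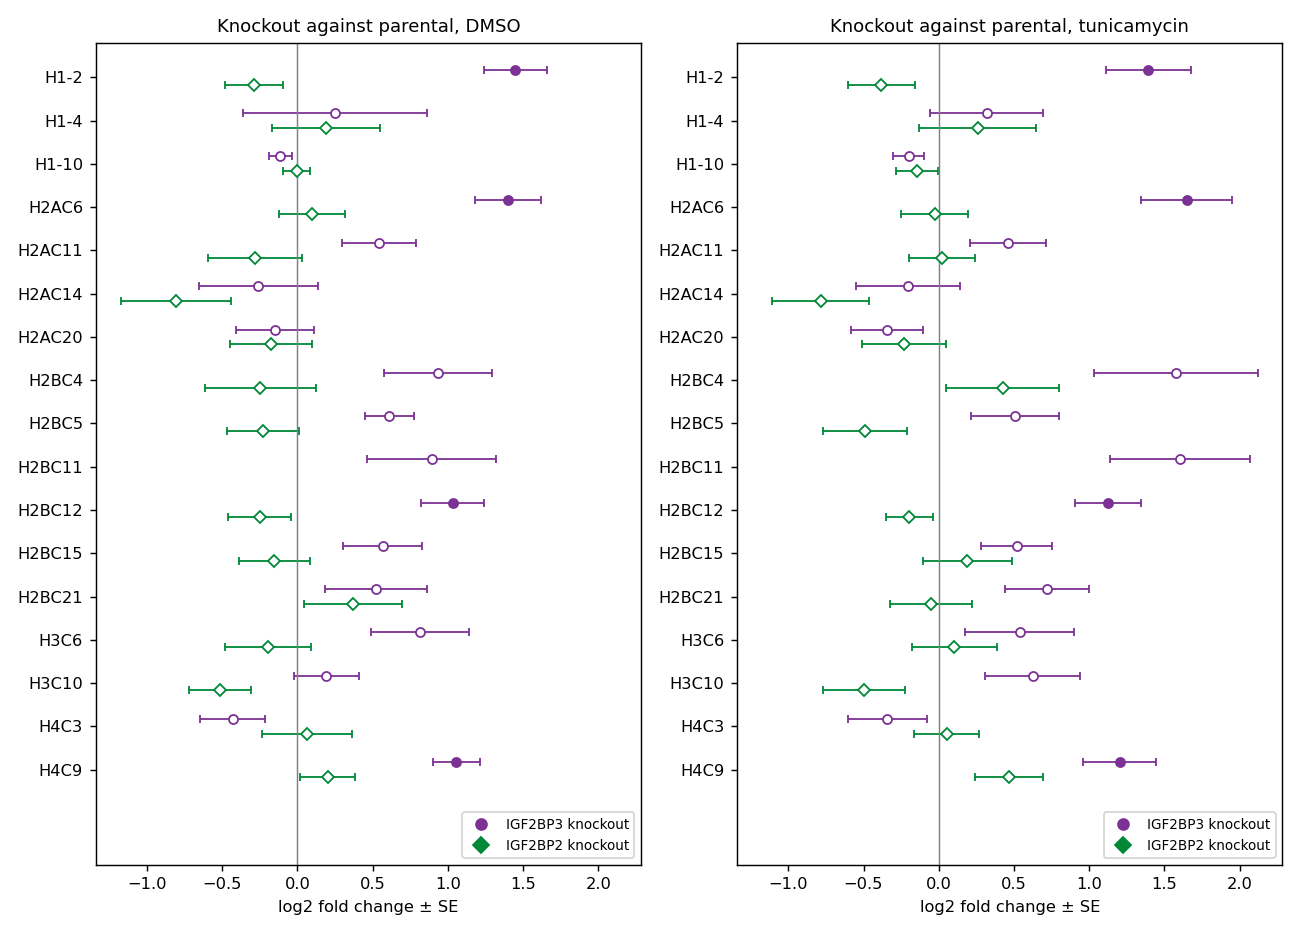
Log2 fold change of each knockout against parental cells (x axis, bars ± SE) for 17 members with a mean count of at least 10, in DMSO and under tunicamycin; filled symbols passed the test and members that failed the filter on low counts have no symbol. Filled symbols appear for H1-2, H2AC6, H2BC12 and H4C9 in IGF2BP3 knockout and nowhere in IGF2BP2 knockout.

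The 2 knockouts were then set directly against each other, which tests whether the members differ between them. In DMSO 4 of 17 members were called, all higher in IGF2BP3 knockout, against 0.589% of all genes called and 0.26% called higher. H1-2 differed by 1.74 on the log2 scale (SE 0.22, edgeR adjusted p 0.00372), H2AC6 1.31 (SE 0.23, 0.0207), H2BC12 1.29 (SE 0.23, 0.0207) and H4C9 0.86 (SE 0.15, 0.0207). H1-2, H2AC6 and H4C9 had no overlap between the groups, and H2BC12 did; 0.491% of all genes separated upward, while no member and 0.723% of all genes separated downward. A log2 fold change above 0 was seen for 15 of 17 members and 49% of all genes. Under tunicamycin 3 of 17 were called, against 0.391% of all genes called and 0.121% called higher: H1-2 (1.77, SE 0.28, adjusted p 0.0164 by edgeR), H2AC6 (1.67, SE 0.28, 0.0184) and H2BC12 (1.32, SE 0.20, 0.0134). H4C9 had 0.74 (SE 0.21, adjusted p 0.142 by edgeR) and H3C10 1.12 (SE 0.28, 0.0905). H1-2, H2AC6, H2BC12 and H3C10 separated upward, as did 0.59% of all genes, and 14 of 17 members lay above 0, against 49% of all genes. No member was called with counts summed per line or within either replicate number. Without clone A3, B7 or E4, H1-2 was the 1 member called in DMSO; under tunicamycin none was called without B7 or E4, and 2 were without A3 or G6.

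Clones of one genotype differed among themselves. Among the IGF2BP3 knockout clones, with both treatments used and treatment as a covariate, 4 of 20 members were called: H2BC12 (adjusted p 6.76e-06 by edgeR), H2AC6 (6e-05), H1-2 (0.000398) and H2BC5 (0.0127). All genes were called at 7.27%. H1-2 averaged 34.4 CPM (SD 6.59, n = 4) in E4, 21.0 (SD 2.98) in A3 and 16 (SD 2.55) in D12. H2BC12 averaged 22.7 (SD 0.906), 16.6 (SD 0.779) and 11.1 (SD 0.895) in the same order. Levels were highest in E4, then A3, then D12, and for H2BC12 the ranges of the 3 clones did not overlap.

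H2AC6 averaged 13.6 CPM (SD 2.81, n = 4) in E4, 8.73 (SD 1.73) in A3 and 5.81 (SD 0.417) in D12. H2BC5 averaged 4.77 (SD 0.422), 3.71 (SD 0.863) and 2.44 (SD 0.664), so that D12 was at the parental level of 2.42 and 2.52. H4C9 differed less, at 4.03 (SD 0.50), 3.21 (SD 0.518) and 3.09 (SD 0.839) (adjusted p 0.43 by edgeR). An order with E4 highest and D12 lowest held for 11 of 18 members and for 20.6% of all genes; it was chosen after these values were seen. Without E4, H2BC12 alone was called (adjusted p 0.0129 by edgeR), and H1-2, H2AC6 and H2BC5 were not (0.38, 0.0955 and 0.268); H2BC5 was also lost without D12 (0.372). With replicate 1 or replicate 2 left out 8 members were called, and with the replicate number as a block 8.

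IGF2BP3 mRNA itself averaged 21.7 CPM (SD 2.38, n = 4) in E4, 23.1 (SD 5.20) in A3 and 45.1 (SD 4.43) in D12. D12 thus had the most IGF2BP3 mRNA and the lowest levels of these members. E4 and A3, however, had similar IGF2BP3 mRNA and still differed in H1-2, H2AC6 and H2BC12. A relation between IGF2BP3 mRNA and histone mRNA across the clones was not tested. D12 also has its own guide, and clone and guide cannot be told apart. Without D12, 5 members were called against parental cells in DMSO, the 4 above among them; under tunicamycin 4 were called, with H1-2, H2AC6 and H2BC12 among them and H4C9 not (adjusted p 0.0516 by edgeR). Among the 16 members with a mean count of at least 10 that are not of the replacement type, the mean log2 level lay above the parental mean for 13 in E4, 12 in A3 and 13 in D12, with medians of 0.82, 0.51 and 0.20.

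Among the IGF2BP2 knockout clones 8 of 17 members were called, against 24.9% of all genes. H1-2 (adjusted p 1.68e-05 by edgeR), H2AC6 (0.00142), H2BC5 (0.00167), H2BC12 (0.00316) and H2BC15 (0.0166) were highest in F6 and lowest in B7. This order held for 7 of 16 tested members with a mean count of at least 10 and for 18.9% of all genes. It too was chosen after these values were seen. H1-10 (0.000926) and H2AC20 (0.0315) ran otherwise and were highest in B7. H1-2 averaged 9.99 CPM (SD 1.39, n = 4) in F6, 5.78 (SD 0.584) in G6 and 5.37 (SD 0.318) in B7, against 8.38 (SD 1.62) and 9.49 (SD 1.31) in the parental samples. F6 thus lay at the parental level and the other two below it. H2BC5 averaged 2.82 (SD 0.524), 1.71 (SD 0.364) and 1.29 (SD 0.415). H1-10 averaged 30.8 (SD 1.84) in B7, 25.5 (SD 1.81) in G6 and 22.0 (SD 1.95) in F6. Of the 16 members with a mean count of at least 10 that are not of the replacement type, 11 lay above the parental mean in F6, 6 in G6 and 3 in B7. Without F6, H1-2 (adjusted p 0.605 by edgeR), H2AC6 (0.395), H2BC5 (0.289), H2BC12 (0.616), H2BC15 (0.0731) and H2AC20 (0.0807) were no longer called, and without B7 neither were H1-10 (0.0706), H2AC20 (0.939) and H2BC15 (0.726). Without replicate 2, 2 members were called, H1-2 among them. Between the 2 parental samples, edgeR and DESeq2 called none of 17 members and edgeR none of 14398 genes (0%), with 2 members at an unadjusted p under 0.05.

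**Figure D3:**
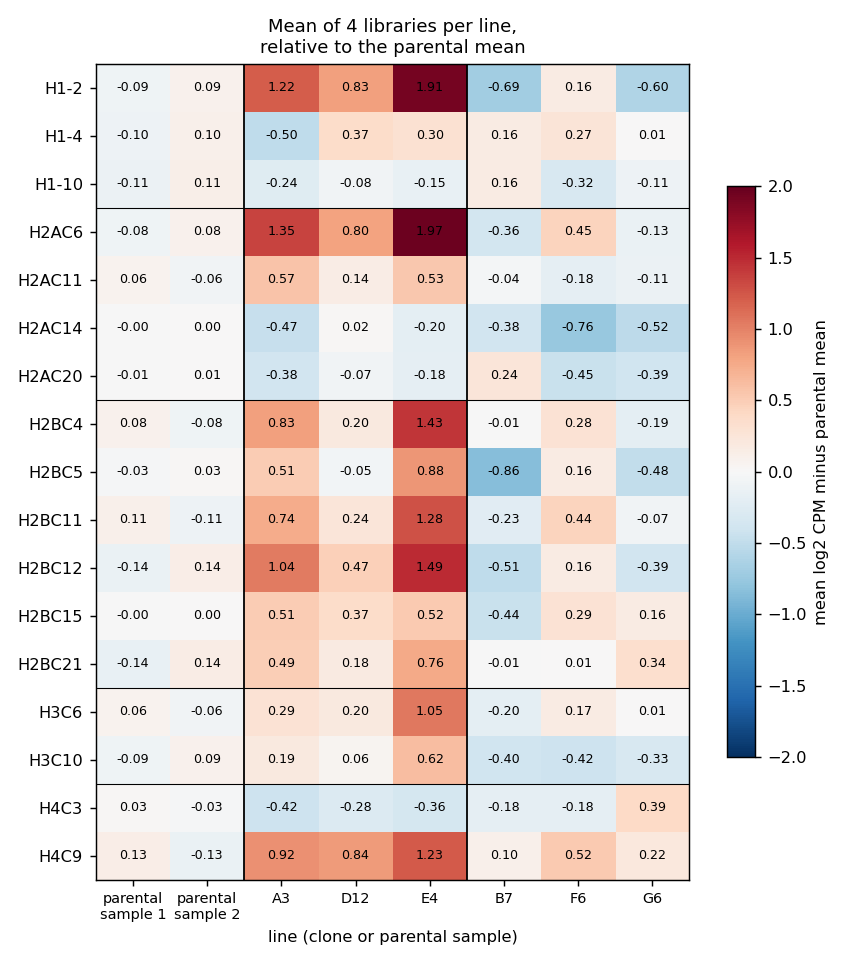
Mean log2 CPM of 4 libraries per line minus the parental mean (colour and number; red higher, blue lower) for 17 members with a mean count of at least 10. H2AC6 reaches 1.97 in E4 and H1-2 1.91, H4C9 lies between 0.84 and 1.23 in the IGF2BP3 knockout clones, and H1-2 is at -0.69 in B7 and -0.60 in G6.

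Tunicamycin moved few of these genes, while it moved a large part of the transcriptome. In parental cells none of 17 members was called by edgeR, 1 was by DESeq2 and 3 had an unadjusted p under 0.05 (36.5% of all genes), against 26.8% of all genes called. With the replicate number as a block, edgeR called 3 of these members in parental cells, 4 in IGF2BP3 knockout and 4 in IGF2BP2 knockout. The share of all genes called with the block was not taken, so these counts have nothing to be set against. In IGF2BP3 knockout 3 of 18 were called, all higher, against 33.8% of all genes and 16.2% higher. In IGF2BP2 knockout 2 of 16 were called, both higher, against 40.1% and 19.2%. In the fits without the block, the share of members called was thus below that of all genes in each genotype. This is a description without a test, since low counts also limit what can be called.

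H3C6, a core histone H3 gene (ENSG00000274750_2, chr6:26224199-26227473, plus strand), was the member called in both knockouts. Its counts were low, at 8 to 17 reads per library in DMSO and 19 to 37 under tunicamycin in IGF2BP2 knockout. Parental DMSO libraries held 10 to 18 reads of H3C6. In IGF2BP2 knockout it was at 0.39 to 0.78 CPM in DMSO (median 0.56) and at 0.99 to 1.81 under tunicamycin (median 1.22), higher in 6 of 6 comparisons of same-numbered libraries of a clone (edgeR log2 fold change 1.17 ± 0.20 SE, adjusted p 0.000346). In IGF2BP3 knockout it went from 0.71 to 1.89 (median 0.97) to 0.84 to 2.63 (median 1.82), higher in 5 of 6 (0.60, SE 0.22, adjusted p 0.0476). In parental cells it was at 0.77, 0.60, 0.41 and 0.88 CPM in DMSO and at 1.31, 1.13, 0.62 and 1.77 under tunicamycin, higher in 4 of 4 (0.87, SE 0.38, adjusted p 0.132 by edgeR). The IGF2BP3 knockout call was lost by edgeR without any one clone (adjusted p 0.06 to 0.201) or without replicate 2 (0.344), and by DESeq2 (0.0517).

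H2AC6 rose in IGF2BP3 knockout by 0.34 (SE 0.10, higher in 5 of 6, adjusted p 0.0139 by edgeR; 0.226 without E4 and 0.0819 without A3). H2BC15, an H2B gene, rose in IGF2BP2 knockout by 0.56 (SE 0.17, higher in 5 of 6, adjusted p 0.017; lost in 6 of 11 alternatives, at 0.23 without F6, 0.0886 without G6, 0.0765 without the G6 control libraries, 0.13 without replicate 1, 0.0697 without replicate 2 and 0.0562 with no low-count filter). H2BC12 had log2 fold changes of -0.10 (SE 0.12), -0.01 (SE 0.07) and -0.01 (SE 0.11) in parental, IGF2BP3 knockout and IGF2BP2 knockout cells.

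The test of whether the response differed between genotypes called no member in either knockout. For IGF2BP3 knockout, edgeR and DESeq2 called 0 of 21 members, none had an unadjusted p under 0.05, and 0% of all genes were called. For IGF2BP2 knockout it was 0 of 19 with both tools, none with an unadjusted p under 0.05, and 0% of all genes. For H2AC6 the difference of responses was 0.21 (SE 0.17) in IGF2BP3 knockout and for H3C6 0.29 (SE 0.40) in IGF2BP2 knockout.

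**Figure D4:**
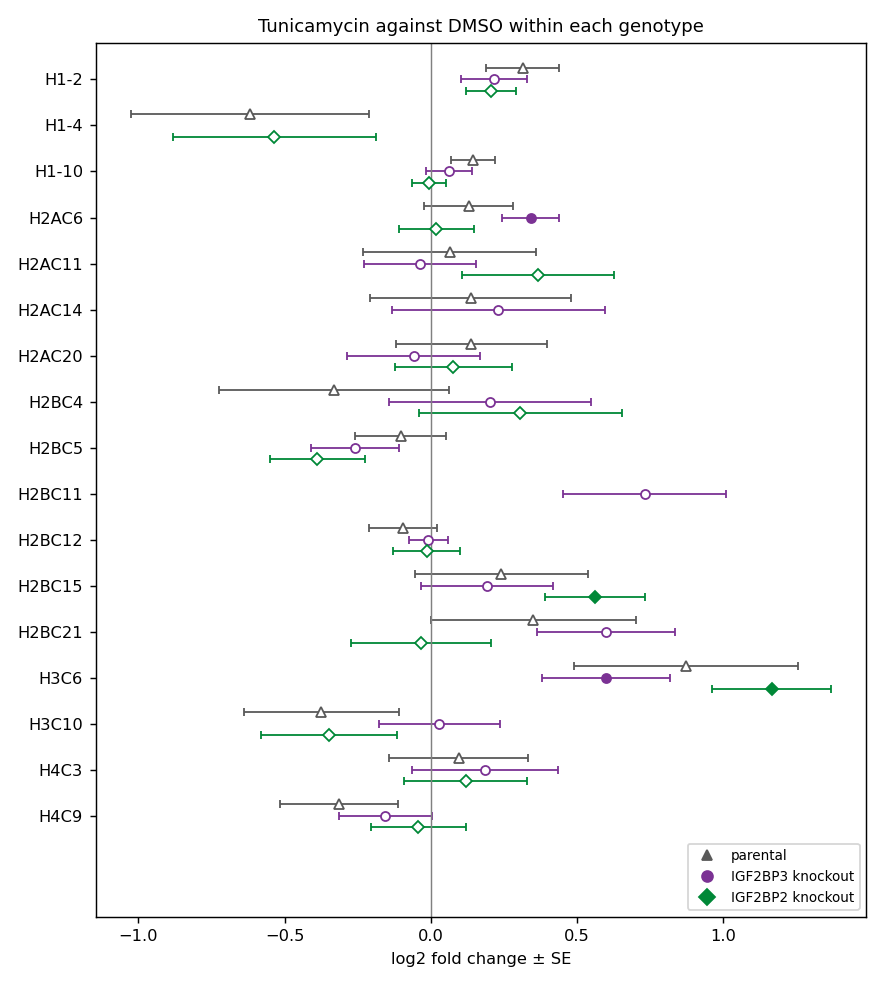
Log2 fold change of tunicamycin against DMSO (x axis, bars ± SE) within parental cells, IGF2BP3 knockout and IGF2BP2 knockout for 17 members with a mean count of at least 10. Filled symbols passed the test: H2AC6 and H3C6 in IGF2BP3 knockout, and H2BC15 and H3C6 (1.17) in IGF2BP2 knockout; members that failed the filter on low counts in a genotype have no symbol there.

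Genes that make, trim and degrade histone mRNA were then read in the same fits. In IGF2BP3 knockout against parental cells in DMSO, none of 15 genes for 3′ end processing was called (median log2 fold change 0.00), among them SLBP (187 CPM, SD 18.0, n = 4, in parental cells and 183, SD 10.2, n = 6, in the knockout). None of 9 genes for histone gene transcription (median 0.04), none of 9 for histone mRNA decay (0.02) and none of 13 histone chaperones (0.02) was called. The medians are set against 0.00 over all genes. Under tunicamycin none of these 4 groups had a called gene either, with medians of 0.05, 0.05, 0.08 and 0.04 against 0.01.

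Markers of the cell cycle were read in the same way. Of 22 S-phase genes none was called in IGF2BP3 knockout against parental cells in DMSO. A log2 fold change above 0 was seen for 12 of them, against 50.9% of all genes. Their median was 0.00 and the values ran from -0.18 to 0.12. Of 12 genes of G2 and mitosis, 12 had a log2 fold change above 0 with a median of 0.11, and BUB1, a mitotic checkpoint kinase, was called (0.21, SE 0.04, adjusted p 0.0293 by edgeR). Under tunicamycin no gene of either list was called, with medians of 0.04 and 0.11. Here 16 of 22 S-phase genes and 11 of 12 genes of G2 and mitosis lay above 0, against 51.8% of all genes. In IGF2BP3 against IGF2BP2 knockout, none of the 22 S-phase genes was called in DMSO (median 0.04) and the mitotic kinase gene PLK1 was (0.27, SE 0.04, adjusted p 0.00991 by edgeR). In that comparison 16 of 22 S-phase genes lay above 0, against 49% of all genes. Under tunicamycin no S-phase gene was called and 17 of 22 lay above 0 (median 0.10, highest 0.26), again against 49%. Of the G2 and mitosis genes, 10 of 12 lay above 0 in each treatment. The part of the S-phase genes or of the G2 and mitosis genes in the histone differences was not tested.

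Replacement histone genes, a list that includes H1-10, are for the most part transcribed outside S phase and polyadenylated. None of 11 was called in IGF2BP3 knockout against parental cells in either treatment, with medians of -0.07 in DMSO and -0.06 under tunicamycin. Directly against IGF2BP2 knockout, H2AX, the variant phosphorylated at DNA breaks and known to be made in both mRNA forms, was called higher in DMSO (0.29, SE 0.05, adjusted p 0.0207 by edgeR) and under tunicamycin (0.33, SE 0.06, 0.0322).

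RNAs that have no poly(A) tail were read as a measure of how strictly a library selected tailed RNA. Of 16 such RNAs, 2 were abundant enough to be tested in DMSO and neither was called in IGF2BP3 knockout against parental cells. Their sum ran from 2.73 to 16.1 CPM in parental DMSO libraries, from 2.33 to 41.5 in IGF2BP3 knockout and from 2.76 to 21.8 in IGF2BP2 knockout, and under tunicamycin from 1.81 to 7.35, 1.92 to 4.55 and 1.47 to 8.0. The highest value came from D12 replicate 1 in DMSO, with RN7SL1, the signal recognition particle RNA, at 40.2 CPM. That library also had the highest sum of the 53 low members (10.8 CPM, others at most 6.97) and the highest H1-4 level (2.65 CPM, others 0.13 to 1.29). The clone with the highest H1-2, H2AC6 and H2BC12, E4, had RN7SL1 at 3.63 to 8.56 CPM over both treatments, where the parental range was 1.53 to 15.6. Its sums of the low members were 6.97 and 4.26 CPM in DMSO, the former the highest after D12 replicate 1. Under tunicamycin these sums were 4.98 and 5.27 in E4 and at most 4.17 in every other library. Tunicamycin against DMSO gave log2 fold changes below 0 for those RNAs without a tail that could be tested. These were -1.10 in parental cells, -1.61 and -0.97 in IGF2BP3 knockout (1 of these 2 called) and -0.52 in IGF2BP2 knockout. Whether selection differed between the clones or between the treatments was not tested.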

How the data were processed

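The deposited table held whole-number read counts per gene for 32 poly(A)-selected, directional, paired-end libraries of 100-base reads, per the labels' protocols. Reads were aligned with STAR 2.7.5c to hg38, per the submitters' processing notes; the counting tool, its annotation and its use of strand are not given in the sources used here. From these counts edgeR 4.0.16 (R 4.3.3) fitted TMM-normalized quasi-likelihood models after filterByExpr, with p-values Benjamini-Hochberg adjusted over all genes tested and a threshold of 0.05. Treatment and interaction fits held the line as a term, and clone comparisons held treatment. DESeq2 1.42.0, other filters, a replicate block, sums per line and leaving out libraries or lines were the alternatives. The scripts were tested on counts simulated with known changes in genes with high counts and without clone or replicate effects. That test does not cover the members with low counts. Any member or gene of the fixed lists could be named, with values in full for members with a mean count of at least 10 that were called in at least 1 comparison; the members and gene lists were chosen with earlier results of these data known. H2AC18 and H2AC19 were not analysed here. Stem-loops came from GENCODE 29 transcripts (GRCh38) and promoters from RefSeq (GRCh38.p14). At total counts of 16651438 to 24913021 per library, 53 of the 71 members had a mean count under 10. Results for 1 member are not reported here, though it is counted among the members.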

Additional observations from a re-analysis of the deposited data

Results flagged for a closer look

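For H4C9 in parental cells under DMSO, the library of parental sample 2, replicate 1, stood apart at 1.56 CPM, with the nearest of the others at 1.8 and the highest at 1.83. The 4 libraries held 38, 43, 42 and 37 reads of this gene, which differ by less than counting error. It was the 1 such case among 60 groups of values examined for 10 members; the threshold is one that about 1 in 20 groups passes by chance.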

How the results depend on the processing

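Values are members called by edgeR unless another tool is named. Shares of all genes called were taken only for the fits reported above, not for these alternatives. Counts summed per line gave 1 and 0 for IGF2BP3 knockout against parental cells in DMSO and tunicamycin, and 0 and 0 for IGF2BP3 against IGF2BP2 knockout. All 32 libraries in one fit gave 7 for IGF2BP3 against IGF2BP2 knockout under tunicamycin. For tunicamycin against DMSO in parental cells, DESeq2, no low-count filter and a mean CPM of at least 1 each gave 1, and the replicate block gave 3. In IGF2BP3 knockout DESeq2 gave 2 and no low-count filter 5. In IGF2BP2 knockout DESeq2 gave 3, a mean CPM of at least 1 gave 1, the replicate block 4, and leaving out the clone G6 control libraries 1. For the IGF2BP3 knockout clones DESeq2 gave 6, no low-count filter 8 and the replicate block 8. Deviations of same-numbered libraries correlated at over 0.1 in 119 of 120 pairs of line and treatment, with the lowest at 0.0878. No label says what a number marks, and the fits without the block are those reported, with the block's counts beside them where they differ. The median correlation was 0.375, so libraries of the same number did share deviations. Fits without the block leave these deviations in the spread between libraries. Leaving the block out changed calls: for tunicamycin in parental cells 0 members were called without the block and 3 with it. For the IGF2BP3 knockout clones the counts were 4 and 8.

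Leaving out libraries, lines or a replicate number gave 0 to 5 and 0 to 4 for IGF2BP3 knockout against parental cells in DMSO and tunicamycin, 0 to 5 and 0 to 3 for IGF2BP3 against IGF2BP2 knockout, and 0 throughout for IGF2BP2 knockout against parental cells and both interactions. For tunicamycin it gave 0 to 3 in parental cells, 1 to 5 in IGF2BP3 knockout and 1 to 4 in IGF2BP2 knockout. Clone comparisons ranged from 1 to 8 for IGF2BP3 and 2 to 8 for IGF2BP2 knockout, and the parental samples from 0 to 1. No called member reversed direction under any alternative run. Of the 71 members, 21 passed the filter on low counts in at least 1 comparison, and nothing is said of the others beyond their summed level.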
